A study of Mus musculus with 18 samples.

Results

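The UDP-glucuronosyltransferases (UGTs) and cytosolic sulfotransferases (SULTs) were followed in injured mouse livers with and without an activated MycER protein. Members were all counted genes whose mouse symbol is of the form Ugt1a, Ugt2a, Ugt2b or Ugt3a with a number, or Sult with a family number, a letter and a number. The rule uses names only and found 42 genes, 21 UGTs and 21 SULTs, among 34937 counted genes. The study profiled polyadenylated RNA of whole liver by single-end sequencing in 18 mice, 3 in each of 6 groups. All livers had been injured with carbon tetrachloride (CCl4), a toxin that kills the hepatocytes around the central veins, given into the peritoneum at 0.5 µL per g body weight. MycER, a Myc protein fused to an oestrogen receptor domain so that tamoxifen switches it on, was activated by daily tamoxifen injections of 1 mg. Group 12 was sampled 12 days after injury without activation and group 12ON at 12 days with activation. Groups 1OFF, 2OFF, 3OFF and 7OFF are labelled 1, 2, 3 and 7 days after injury without activation, and the labels are silent on any earlier activation of MycER in them. Nor do they give the sex, age or strain of the mice, the promoter that drives MycER, the cells that express it, or whether group 12 received tamoxifen. The study's design text sets 12 against 12ON and then each OFF group against 12ON, and the comparisons of OFF groups with group 12 were added here.

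Both families attach a polar group to small molecules so that they can leave the body in bile or urine. UGTs transfer a sugar, usually glucuronic acid from UDP-glucuronate, to bilirubin, bile acids, steroids and drugs in the endoplasmic reticulum, while SULTs transfer sulfate from the donor PAPS to steroids, thyroid hormone, phenols and amines in the cytosol. Liver hepatocytes are the main site of both reactions, several members are known to differ between male and female mice, and genes of 1 subfamily lie side by side in the genome and share much of their sequence.

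The 18 libraries held 23057899 to 75276898 counts, and the members took 0.508% to 1.002% of them. These shares are too high, since a read in exons common to the Ugt1a genes was counted for each of those genes. Expression is given below as counts-per-million (CPM) after scaling between libraries, an error after ± on a level is the SD over 3 mice, and an error on a log2 fold change is its SE. Xist, the RNA of the inactive X chromosome, read 276 to 455 CPM in 5 libraries (12 replicate 3, 12ON replicate 2, 2OFF replicate 1, 3OFF replicate 3 and 7OFF replicate 3) and 0.21 to 1.94 CPM in the other 13. The Y-linked genes split the same way: Ddx3y read 0.0813 to 0.172 CPM in those 5 and 47.6 to 82.4 in the other 13. Eif2s3y read 0.044 to 0.19 and 36.3 to 51.5 CPM. By these genes the 5 are female and the 13 male, and group 1OFF has no female. 7OFF replicate 1 stood apart from the rest: Mup20, a male-biased urinary protein gene, read 9194 CPM there and at most 1591 elsewhere, and it was the library with the least Sult2a1 and the most Ugt2b5. The hepatocyte list (Alb, Ttr, Apoa1, Serpina1a, Cps1 and Hnf4a) summed to 103700 to 114200 CPM in group 12, 30050 to 37280 in 12ON and 66970 to 86850 in 7OFF, while the cholangiocyte list (Krt19, Krt7, Epcam, Sox9, Spp1 and Cftr) summed to 32.1 to 93.4, 184 to 198 and 49.6 to 78.1 CPM. Most of each sum is 1 gene: Alb (means of 91890, 24040 and 57300 CPM) and Spp1 (46.6, 158 and 54.5). Of the hepatocyte list, only Cps1 was higher in 12ON than in group 12 (means of 1626, 3045 and 2858 CPM in groups 12, 12ON and 7OFF). The enterocyte list (Fabp2, Vil1 and Cdh17) summed to at most 50.3 CPM in these 3 groups, with Cdh17 at 0 in group 12, and the kidney list (Umod, Slc12a1 and Slc34a1) to at most 0.0554 CPM. The share of counts from mitochondrial genes was 4.8% to 5.25% in group 12 and 6.42% to 7.11% in 12ON. These values move with the results below, and their part in them was not tested except where a value is given; in whole tissue, fewer cells of a type and less RNA per cell cannot be told apart.

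Sequences near the shared parts of these genes show which counts can be read as single genes. The 9 Ugt1a genes (Ugt1a1, Ugt1a2, Ugt1a5, Ugt1a6a, Ugt1a6b, Ugt1a7c, Ugt1a8, Ugt1a9 and Ugt1a10) lie at chr1:88055388-88220002 (GRCm38) and each joins a first exon of its own to the same 4 last exons, between 88215044 and 88218997. Below are the last 30 coding bases of the first exon in lower case, followed by the first 30 of the common exons in capitals, 5′ to 3′, for 5 of the genes. Ugt1a2 has the same 60 bases as Ugt1a5, and Ugt1a6b the same as Ugt1a6a.
Ugt1a1: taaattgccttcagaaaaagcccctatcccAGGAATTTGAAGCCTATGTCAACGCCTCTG
Ugt1a5: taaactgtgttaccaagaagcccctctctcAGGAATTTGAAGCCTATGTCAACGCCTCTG
Ugt1a6a: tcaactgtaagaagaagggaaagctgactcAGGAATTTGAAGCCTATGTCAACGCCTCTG
Ugt1a8: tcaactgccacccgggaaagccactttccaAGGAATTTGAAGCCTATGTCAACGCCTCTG
Ugt1a9: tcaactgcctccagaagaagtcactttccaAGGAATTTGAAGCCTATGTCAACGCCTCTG
The common exons hold 740 of the 1587 to 1608 coding bases of each gene and 1311 exonic bases in all. Because a read in them was counted for every one of the 9 genes, the deposited Ugt1a counts are nearly equal and the 9 genes are close to 1 measurement of the locus. The count of a gene minus the lowest Ugt1a count of the same library, which was that of Ugt1a8 in all 18 libraries, is called its own count below; it leaves out the unknown own part of Ugt1a8.

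The 8 Sult2a genes (chr7:13623967-14492926) have separate exons but are close copies. The first 60 coding bases are shown 5′ to 3′, with capitals where a base differs from Sult2a1, since reads of this length (50 bases) that match several genes were not counted. Sult2a2 and Sult2a5 are identical to Sult2a1 over this stretch.
Sult2a1: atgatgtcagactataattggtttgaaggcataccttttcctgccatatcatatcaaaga
Sult2a4: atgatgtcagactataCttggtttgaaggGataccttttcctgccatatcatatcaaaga
Sult2a3: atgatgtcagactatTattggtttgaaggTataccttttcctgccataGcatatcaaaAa
Sult2a6: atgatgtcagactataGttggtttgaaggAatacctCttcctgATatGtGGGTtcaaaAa
Sult2a7: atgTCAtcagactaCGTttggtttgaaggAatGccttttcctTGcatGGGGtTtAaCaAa
Sult2a8: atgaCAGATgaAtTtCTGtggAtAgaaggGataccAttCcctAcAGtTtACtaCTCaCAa
Of all 50-base windows in the annotated transcripts, 62.1% of those of Sult2a2, 34.5% of Sult2a5, 33.2% of Sult2a1 and 25.5% of Sult2a4 also occur in another gene, against 2% for Sult2a8 and 0% for Sult2a7. Their counts therefore miss part of their reads, and levels are not comparable between these genes. The same holds for Ugt2b5 (41.7%), Ugt2b38 (37.4%) and Ugt2b37 (18.3%), and Ugt2a1 and Ugt2a2 (97% and 93.6%) share exons and were counted as nearly the same reads.

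Many conjugating enzymes were lower in livers with activated MycER. Of the 38 members with enough counts to test, 23 were lower and 3 higher in 12ON than in group 12, against 22.6% of all 17789 genes tested that were lower and 24% that were higher (46.6% called in either direction; edgeR's quasi-likelihood test, Benjamini-Hochberg adjusted p under 0.05 over all genes). The members' median log2 fold change was -0.97 and that of all genes -0.005. In 32 of 38 members the 3 values of one group did not overlap those of the other, against 58.2% of all genes. With the Ugt1a locus left out, since its 9 genes are nearly 1 measurement, 14 of 29 members were lower and 3 higher. Scaling by total counts alone, which moved the median of all genes by 0.49, gave 17 lower and 6 higher, and with a term for the mitochondrial share 15 were lower and 1 higher. Sult6b2, Sult4a1 and Sult6b1 had at most 18 counts in any library and were not tested, and Sult1c1 had 0 counts in all 18 libraries.

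**Figure D1:**
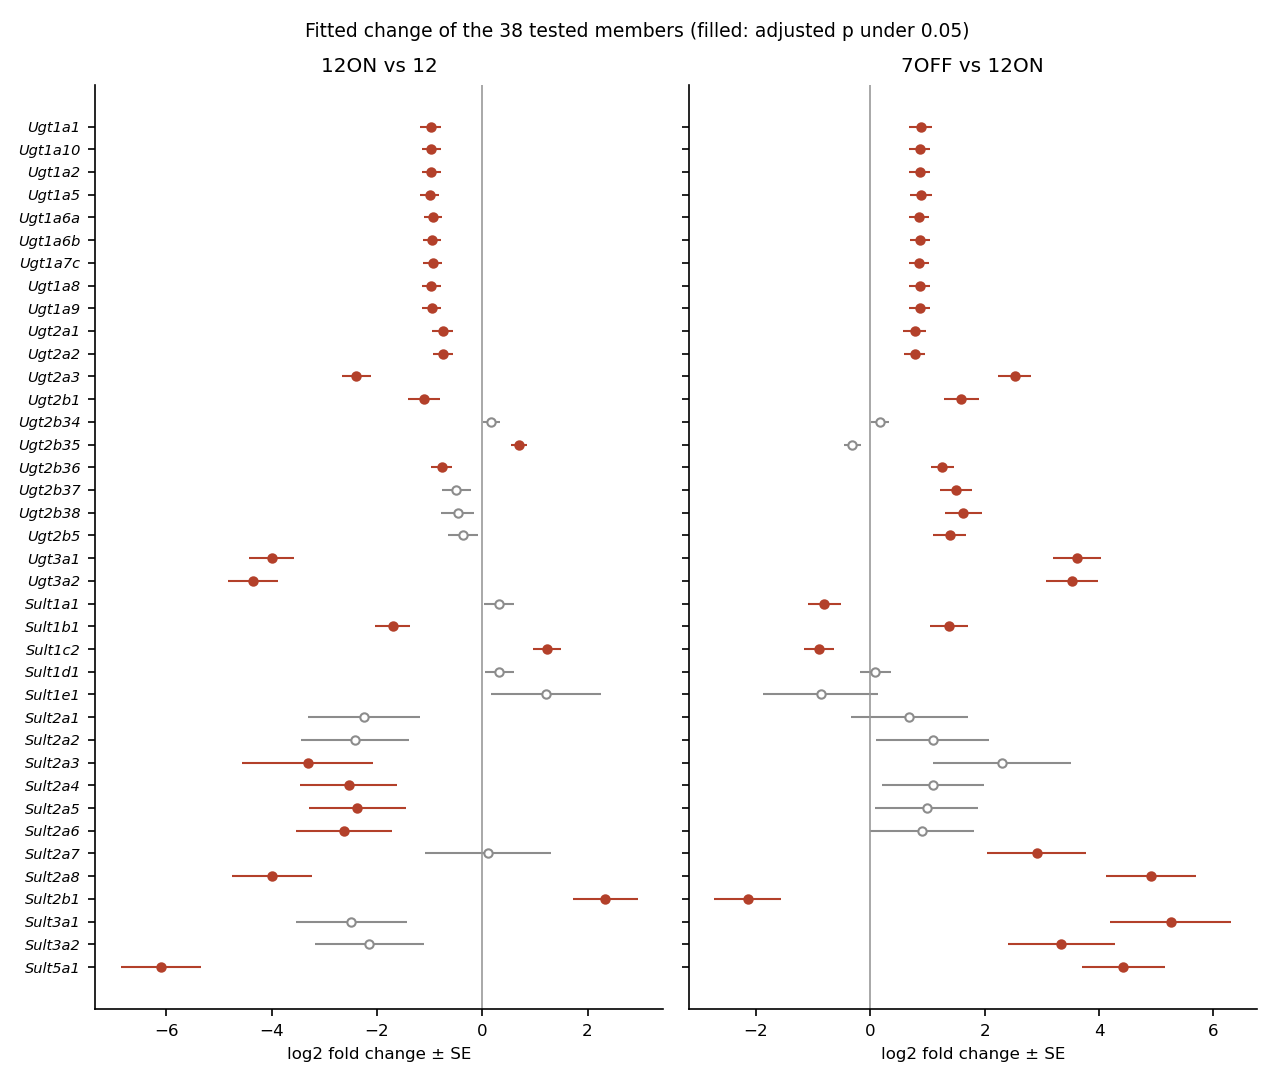
Log2 fold changes (x axis, bars are SE) of the 38 tested members, 1 per line, in 12ON against 12 and in 7OFF against 12ON; filled symbols have an adjusted p under 0.05 in edgeR's quasi-likelihood test. Most members lie left of 0 in the first comparison (23 called lower) and right of 0 in the second (25 called higher), with Sult5a1, Ugt3a1, Ugt3a2 and Sult2a8 farthest left among those called.

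Members called against 12ON were found at 3OFF and 7OFF. At 1OFF, edgeR's test called 0 of 38 members against 12ON (0.00562% of all genes called); 5 of 38 had an unadjusted p under 0.05, near the 14.4% of all genes, and DESeq2 called 1, Ugt3a1 (log2 1.26, adjusted p = 0.0374). At 2OFF it also called 0 (0% of all genes), with 6 at an unadjusted p under 0.05, near the 17.1% of all genes, and 0 called by DESeq2; without 2OFF replicate 2 it called 3, Ugt2a3 (log2 0.90, adjusted p = 0.0264), Ugt3a1 (1.30, adjusted p = 0.0494) and Ugt3a2 (1.37, adjusted p = 0.0269). At 3OFF, 20 members were higher and 1 lower (32.3% of all genes called), with a median of 0.74 against 0.013 for all genes. At 7OFF, 25 were higher and 3 lower (44% of all genes called), with a median of 0.89 against 0.006. The 3OFF count rests partly on the choice of libraries and scaling: 3 were higher and 1 lower in the low-Xist libraries alone, and 10 higher and 2 lower with total-count scaling. Set beside group 12 instead, 15 members were lower and 1 higher at 1OFF (33.4% of all genes called), 21 lower and 3 higher at 2OFF (35.1%), 3 lower and 2 higher at 3OFF (17.4%; 9.47% of all genes higher), and 0 lower and 3 higher at 7OFF (5.77%; 3.31% of all genes lower and 2.47% higher). Without the Ugt1a locus, 11 of 29 members were higher and 1 lower than 12ON at 3OFF, and 16 higher and 3 lower at 7OFF. Against group 12, 6 of the 29 were then lower and 1 higher at 1OFF. Their share called, 24.1%, was below the 33.4% of all genes. At 2OFF, 12 were lower and 3 higher (51.7% called), and the counts at 3OFF and 7OFF stayed the same. With all 38 members, scaling by total counts gave 5 lower and 4 higher than group 12 at 1OFF and 9 lower and 5 higher at 2OFF. All comparisons with 12ON share its 3 libraries, and all comparisons with 12 share those of 12.

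The UGT3 genes had among the largest differences. Ugt3a1 and Ugt3a2 lie side by side at chr15:9273319-9370955; in humans, enzymes of this family are known to use UDP sugars other than UDP-glucuronate. Ugt3a2 read 498, 450.2 and 374 CPM in group 12 and 28.8, 13.9 and 21.9 in 12ON, 20.4-fold lower (log2 fold change -4.35 ± 0.47, adjusted p = 4.96e-06). It read 54.6, 32.1 and 50.9 at 1OFF, 41.8, 16.2 and 71.1 at 2OFF, 86.4, 141 and 159.9 at 3OFF and 348, 209 and 191 at 7OFF. All 3 libraries of 3OFF and of 7OFF lay above those of 12ON and below those of group 12. Against 12ON it was higher at 3OFF (2.58, adjusted p = 0.00059) and 7OFF (3.53, adjusted p = 2.76e-05), and against group 12 it was lower at 3OFF (-1.77, adjusted p = 0.0106), while the difference at 7OFF did not pass (-0.82, adjusted p = 0.266). The call against group 12 at 3OFF was lost without 3OFF replicate 1 (adjusted p = 0.0535) and with a term for the mitochondrial share (adjusted p = 0.225).

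Ugt3a1 was lower in level and had a like pattern. It read 79.9, 69.7 and 63 CPM in group 12 and 5.43, 2.33 and 5.43 in 12ON. Ugt3a1 levels were 14.5, 8.56 and 8.48 at 1OFF, 9.89, 4.62 and 12.1 at 2OFF, 18.9, 28 and 29.6 at 3OFF and 85.1, 38.7 and 39.5 at 7OFF. The 12ON libraries did not overlap those of group 12 and were 16-fold lower (log2 fold change -4.00 ± 0.43, adjusted p = 4.31e-06). 7OFF replicate 1 lay above all libraries of group 12 and the other two 7OFF libraries below them. Both genes share little sequence (7% to 7.6% of 50-base windows), so each is its own measurement.

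**Figure D2:**
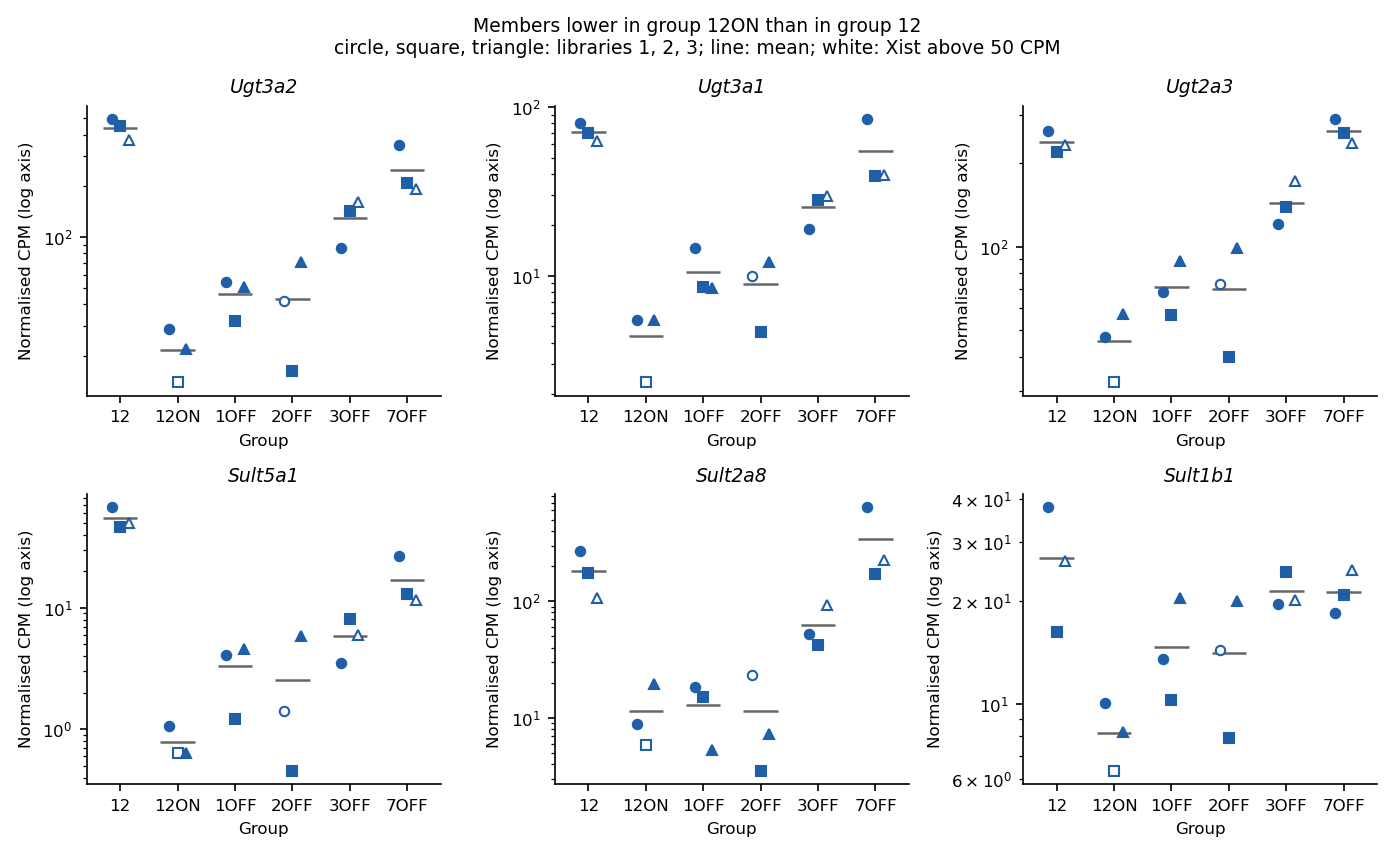
CPM on a log axis (y) in each of the 18 libraries by group (x) for Ugt3a2, Ugt3a1, Ugt2a3, Sult5a1, Sult2a8 and Sult1b1; circles, squares and triangles are replicates 1, 2 and 3, white symbols are libraries with Xist above 50 CPM, and lines are group means. In all 6 genes the 3 values of 12ON lie below the 3 of group 12, and those of 7OFF above those of 12ON.

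The UGT2 genes lie in 1 cluster with 3 SULT1 genes at chr5:86889767-87591594 and moved in both directions. Of the 13 members there, 6 were lower in 12ON than in group 12, 1 was higher and 6 did not pass. Of all genes 46.6% were called, near the share here, with 22.6% lower and 24% higher. At 7OFF against 12ON, 9 of the 13 were higher and 0 lower, against 21.4% of all genes higher and 44% called in either direction. Ugt2a3, whose human counterpart glucuronidates bile acids, read 262, 219.6 and 234 CPM in group 12 and 47.3, 32.3 and 56.9 in 12ON. Ugt2a3 levels were 68.7, 56.6 and 89 at 1OFF, 73, 39.9 and 98.4 at 2OFF, 120.3, 139 and 172 at 3OFF and 289.9, 257 and 238 at 7OFF. It was 5.24-fold lower in 12ON (log2 fold change -2.39 ± 0.28, adjusted p = 1.02e-05). It was higher than in 12ON at 3OFF (1.66, adjusted p = 0.000492) and at 7OFF (2.52, adjusted p = 9.76e-06), where its values overlapped those of group 12.

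Among the Ugt2b genes, Ugt2b1 and Ugt2b36 fell and Ugt2b35 rose. Ugt2b1 read 275, 242 and 201 CPM in group 12 and 136, 79.6 and 119 in 12ON (log2 fold change -1.10 ± 0.30, adjusted p = 0.00725). Ugt2b1 levels were 124, 138 and 149.5 at 1OFF, 106, 84.2 and 151 at 2OFF, 193, 248 and 226 at 3OFF and 541, 256 and 212 at 7OFF. Ugt2b36, one of the more abundant UGT2 genes, read 448, 345 and 410.2 CPM in group 12 and 239, 202 and 265 in 12ON (log2 fold change -0.77 ± 0.20, adjusted p = 0.00471). Ugt2b36 levels were 298, 315 and 282 at 1OFF, 268, 201 and 298 at 2OFF, 378, 431 and 471 at 3OFF and 755, 517 and 415 at 7OFF. In both genes all 12ON values lay below all of group 12, and both were higher at 7OFF than in 12ON (1.59, adjusted p = 0.000648; 1.26, adjusted p = 0.000136), with the highest value in 7OFF replicate 1. Both calls in 12ON against 12 were lost with a term for the mitochondrial share.

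Ugt2b35, which lies between Ugt2b1 and Ugt2b36, read 143, 155 and 132 CPM in group 12 and 228, 224 and 243 in 12ON, 1.62-fold higher (log2 fold change 0.69 ± 0.15, adjusted p = 0.00173), with no overlap. It read 176, 194 and 195 at 1OFF, 182, 181 and 207 at 2OFF, 163, 182 and 184 at 3OFF and 247, 172 and 139.7 at 7OFF. The values of 7OFF ran from within the range of group 12 to above that of 12ON, and the difference from 12ON did not pass (-0.32, adjusted p = 0.107); without 7OFF replicate 1 it did (log2 -0.58, adjusted p = 0.00136). Ugt2b34, at the edge of the cluster, had overlapping values in groups 12 and 12ON: it read 276, 284 and 328 CPM in group 12 and 316, 312 and 373 in 12ON. Ugt2b34 levels were 294, 318 and 278 at 1OFF, 273, 294 and 277 at 2OFF, 285, 313 and 395 at 3OFF and 487, 315 and 323 at 7OFF. It passed in none of the 9 comparisons with edgeR, 1 of which had an unadjusted p under 0.05 (7OFF against 12), and its log2 fold change in 12ON against 12 was 0.17 ± 0.16 (adjusted p = 0.393).

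Ugt2b5, Ugt2b37 and Ugt2b38 did not pass in 12ON against 12 and were higher at 7OFF. Ugt2b5 read 313, 316 and 309.8 CPM in group 12 and 244, 207 and 276 in 12ON (log2 fold change -0.37 ± 0.28, adjusted p = 0.301). Ugt2b5 levels were 258, 291 and 249 at 1OFF, 202, 192 and 233 at 2OFF, 257, 344 and 395 at 3OFF and 1050, 518 and 339.7 at 7OFF. Ugt2b37 read 36, 40.7 and 38.5 CPM in group 12 and 27.5, 22.8 and 31.7 in 12ON (log2 fold change -0.49 ± 0.28, adjusted p = 0.159). Ugt2b37 levels were 30, 32.8 and 29.9 at 1OFF, 23.2, 21.9 and 27.2 at 2OFF, 29.9, 42.3 and 45.3 at 3OFF and 126, 64.3 and 42.1 at 7OFF. Ugt2b38 read 63.5, 68.3 and 61.4 CPM in group 12 and 47.2, 40 and 52.7 in 12ON (log2 fold change -0.47 ± 0.31, adjusted p = 0.236). Ugt2b38 levels were 51.6, 57.7 and 51.5 at 1OFF, 39.8, 38.3 and 48.2 at 2OFF, 50.5, 70.4 and 79.4 at 3OFF and 254, 105 and 73.4 at 7OFF. In all 3 genes every 7OFF value lay above every 12ON value, and 7OFF replicate 1 was the highest of the 18 libraries. Against 12ON their log2 fold changes at 7OFF were 1.39, 1.5 and 1.63 (0.94 for Ugt2b38 without 7OFF replicate 1). They are also the 3 members higher at 7OFF than in group 12 (1.02, adjusted p = 0.0471; 1.01, adjusted p = 0.0448; 1.16, adjusted p = 0.0422), and without 7OFF replicate 1 those values were 0.45, 0.47 and 0.47 and none passed; the 1 member then called was Sult3a1 (3.32, adjusted p = 0.031). Leaving out any of the 3 group 12 libraries also ended these calls, and leaving out 7OFF replicate 2 ended those of Ugt2b5 and Ugt2b37 (adjusted p = 0.0621 and 0.0616).

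The starts of these 3 genes share sequence as well. The 100 bases before each RefSeq start site (GRCm38.p6, minus strand, 5′ to 3′) are shown, and capitals mark a run of 62 bases found in all 3. High values in 7OFF replicate 1 were not particular to these genes. That library was also the highest for Ugt2b1 (541 CPM), Ugt2b34 (487), Ugt2b35 (247) and Ugt2b36 (755). The windows are chr5:87140341-87140440 for Ugt2b5, chr5:87254789-87254888 for Ugt2b37 and chr5:87424204-87424303 for Ugt2b38.
Ugt2b5: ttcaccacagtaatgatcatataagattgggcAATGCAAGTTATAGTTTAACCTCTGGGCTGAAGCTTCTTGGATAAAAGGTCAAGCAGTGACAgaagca
Ugt2b37: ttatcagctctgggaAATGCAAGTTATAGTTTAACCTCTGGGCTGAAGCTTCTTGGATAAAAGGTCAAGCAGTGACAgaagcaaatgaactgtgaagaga
Ugt2b38: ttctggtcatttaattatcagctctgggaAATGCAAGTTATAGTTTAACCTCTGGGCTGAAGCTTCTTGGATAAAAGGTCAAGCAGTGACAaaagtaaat
The longest run shared by the windows of Ugt2b5 and Ugt2b36 is 24 bases, and that of Ugt2b5 and Ugt2b35, which rose in 12ON, is 6. Whether the run bears on the levels of these genes was not tested.

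The remaining UGT2 genes, Ugt2a1 and Ugt2a2, known from olfactory epithelium, were low. Their counts are nearly the same reads, and both stood at 2.31 to 2.89 CPM in group 12 and 1.27 to 1.87 in 12ON (Ugt2a1 log2 fold change -0.75 ± 0.20, adjusted p = 0.00536). That call was lost in the low-Xist libraries alone and with the term for the mitochondrial share.

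The Ugt1a locus as a whole was lower in 12ON. Ugt1a1, the enzyme that conjugates bilirubin, read 790.4, 906 and 1031 CPM in group 12 and 458, 469 and 456 in 12ON. Ugt1a1 levels were 532, 542 and 622 at 1OFF, 508, 383 and 684 at 2OFF, 644, 824 and 861 at 3OFF and 732, 751 and 1059 at 7OFF. It was 1.97-fold lower in 12ON than in group 12 (log2 fold change -0.98 ± 0.20, adjusted p = 0.000811). The lowest gene of the locus, Ugt1a8, read 623, 712 and 784 CPM in group 12, 363, 360.3 and 360.5 in 12ON and 594, 595 and 784 at 7OFF. The 9 log2 fold changes lay between -1.0 and -0.94, and those at 7OFF against 12ON between 0.85 and 0.89; the values of 12ON overlapped neither those of group 12 nor those of 7OFF. All 9 were also lower than in group 12 at 1OFF and 2OFF, and edgeR called none of them against group 12 at 3OFF or 7OFF. At 1OFF, Ugt1a1 lost its call without 12 replicate 3, 1OFF replicate 1 or 1OFF replicate 2 (adjusted p from 0.0511 to 0.0554), and Ugt1a9 without either of the last pair (adjusted p = 0.0513 and 0.0583). With a term for the mitochondrial share all 9 calls were lost at both 1OFF and 2OFF, total-count scaling lost 9 and 7 of them, and the low-Xist libraries alone lost 6 and 8. At 7OFF against 12ON, total-count scaling lost the calls of Ugt1a1 and Ugt1a9, and at 3OFF against 12ON all 9 calls were lost with it and in the low-Xist libraries alone.

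Own counts separated the genes. Ugt1a1 held 54.3% of all own counts, but its first exon overlaps the gene model Gm20528. Shares of own counts in this paragraph are approximate, since reads where Ugt1a6a, Ugt1a6b and Ugt1a7c overlap count for several genes. The own level of Ugt1a1 was 203 ± 40.7 CPM in group 12 and 99.6 ± 8.23 in 12ON (log2 fold change -1.03 ± 0.25, adjusted p = 0.00367). Ugt1a5 read 15, 25.2 and 24.9 CPM of its own in group 12 and 2.62, 1.82 and 3.15 in 12ON (log2 fold change -3.10 ± 0.53, adjusted p = 0.000242), then 3.13, 3.66 and 6.02 at 1OFF, 3.37, 4.72 and 5.26 at 2OFF, 4.2, 13.3 and 7.92 at 3OFF and 11.4, 6.2 and 31.5 at 7OFF. Its fall in the deposited counts, which are mostly common exons, was -1.0 on the log2 scale. Ugt1a5 thus made up 6% of own counts in group 12 and 1.3% in 12ON. Whether its fall exceeded that of Ugt1a1 was not tested. Ugt1a2, at 1.21 ± 0.242 CPM of its own in group 12, fell by 2.83 on the log2 scale (adjusted p = 0.00188).

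Ugt1a6a, Ugt1a6b and Ugt1a7c, of which the Ugt1a6 enzymes act on small planar phenols, have annotated models that overlap one another and cannot be separated here. Ugt1a6a read 38.8, 33.9 and 45.2 CPM of its own in group 12, 29.7, 23.5 and 28 in 12ON and 58.9, 37.4 and 36.1 at 7OFF. Own counts of the 3 fell by 0.54, 0.81 and 0.57 on the log2 scale (adjusted p from 0.00239 to 0.0127). Ugt1a9 read 31.6, 50.7 and 6.07 CPM of its own in group 12 and 18.2, 14.8 and 14.4 in 12ON. Its lowest value was in 12 replicate 3, a high-Xist library, so that group 12 overlapped 12ON, and the difference did not pass (log2 fold change -0.89 ± 0.71, adjusted p = 0.323). In the other high-Xist libraries Ugt1a9 read 14.8 (12ON), 6 (2OFF), 49.1 (3OFF) and 16.6 CPM (7OFF). Own counts of Ugt1a10 were at most 3.06 CPM and their difference did not pass either (log2 fold change -1.34 ± 0.76, adjusted p = 0.16).

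**Figure D3:**
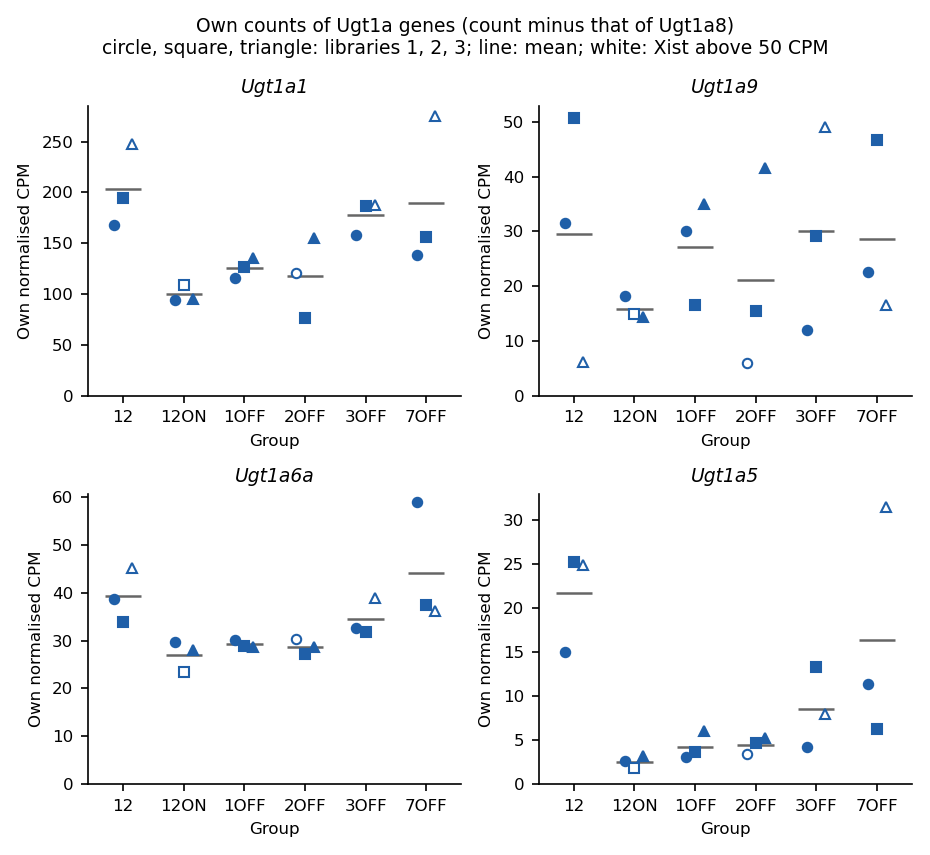
Own CPM (y, linear from 0: count of the gene minus that of Ugt1a8 in the same library) of Ugt1a1, Ugt1a9, Ugt1a6a and Ugt1a5 in the 18 libraries by group (x), with symbols as in the plot of the 6 genes above and lines at group means. Ugt1a5 stands at 14.9 to 25.2 CPM in group 12 and 1.83 to 3.15 in 12ON, while the Ugt1a9 values of group 12 run from 6.07 to 50.7.

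The SULTs ranged from the largest fall among the called members to differences that did not pass. Of 17 tested, 7 were lower and 2 higher in 12ON than in group 12, and at 7OFF against 12ON 6 were higher and 3 lower. The share called was 52.9% in both, near the 46.6% and 44% of all genes. Sult5a1 (chr8:123142847-123158315), a SULT without a known physiological substrate, read 67.4, 46 and 50.1 CPM in group 12 and 1.07, 0.638 and 0.641 in 12ON, 68.8-fold lower (log2 fold change -6.10 ± 0.76, adjusted p = 1.59e-05). It read 4.09, 1.2 and 4.6 at 1OFF, 1.42, 0.454 and 5.84 at 2OFF, 3.49, 8.1 and 5.99 at 3OFF and 26.6, 13 and 11.6 at 7OFF. No library of any OFF group reached the lowest of group 12. At 7OFF it was higher than in 12ON (4.42, adjusted p = 0.000177), and its difference from group 12 passed at 3OFF (-3.21, adjusted p = 0.00345) and not at 7OFF (-1.68, adjusted p = 0.11). The call against group 12 at 3OFF was lost with a term for the mitochondrial share (adjusted p = 0.122).

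The Sult2a genes encode hydroxysteroid and bile acid sulfotransferases, and most are known as female-biased in mouse liver. Sult2a8, which sulfates bile acids, read 268, 174 and 106 CPM in group 12 and 8.87, 5.87 and 19.5 in 12ON. Sult2a8 levels were 18.3, 15.2 and 5.27 at 1OFF, 23.3, 3.51 and 7.24 at 2OFF, 52.8, 41.7 and 92.5 at 3OFF and 639.6, 170.3 and 224 at 7OFF. It was 16-fold lower in 12ON (log2 fold change -4.00 ± 0.76, adjusted p = 5e-04) and higher at 3OFF (2.45, adjusted p = 0.0157) and 7OFF (4.91, adjusted p = 0.00015; 4.11 without 7OFF replicate 1), with no overlap in any of these comparisons. The call at 3OFF was lost without 12ON replicate 1, 12ON replicate 2 or 3OFF replicate 3 (adjusted p = 0.0573, 0.0754 and 0.0606) and in the low-Xist libraries alone (adjusted p = 0.114). 12ON replicate 3 was the highest of its group, and without it the 3 differences were -4.63, 3.06 and 5.53. Sult2a1, the dehydroepiandrosterone sulfotransferase, read 102, 125 and 414 CPM in group 12 and 25.1, 61.4 and 49.2 in 12ON. Sult2a1 levels were 34.9, 35.7 and 35.4 at 1OFF, 37.5, 13.8 and 68.7 at 2OFF, 23.6, 93.7 and 185 at 3OFF and 0.804, 55.3 and 161 at 7OFF. The lowest value, in 7OFF replicate 1, is the library where Sult2a8 was highest. In 12ON all 3 values lay below those of group 12, but the difference did not pass (log2 fold change -2.24 ± 1.07, adjusted p = 0.0978; -1.33 without 12 replicate 3).

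Sult2a3, Sult2a4, Sult2a5 and Sult2a6 passed in 12ON against 12 with less margin (-3.32, adjusted p = 0.0383; -2.53, adjusted p = 0.0336; -2.37, adjusted p = 0.0465; -2.63, adjusted p = 0.0259), and Sult2a2 did not (-2.41, adjusted p = 0.066). All of these had their highest value in 12 replicate 3, a high-Xist library: Sult2a3 read 1.66, 2.02 and 27.7 CPM in group 12 and 0.702, 0.836 and 1.66 in 12ON. Without that library none of the 4 passed (log2 -0.79, adjusted p = 0.616 for Sult2a3; -1.22, adjusted p = 0.30 for Sult2a6; adjusted p = 0.108 for Sult2a4 and 0.121 for Sult2a5). Nor did any of the 4 pass in the low-Xist libraries alone or with a term for the mitochondrial share, and Sult2a5 lost its call without any of the 6 libraries compared (adjusted p from 0.0602 to 0.136). At 7OFF all 5 genes had their lowest value in replicate 1 and their highest in replicate 3 (Sult2a2 read 0.734, 80.1 and 158 CPM), and none was called against 12ON by edgeR. Sult2a7 was at most 0.87 CPM (25 counts); it passed at 7OFF against 12ON (2.91, adjusted p = 0.0125) and not without 7OFF replicate 1 (2.36, adjusted p = 0.0585) or 12ON replicate 1 (adjusted p = 0.0518), and was 4.46 without 12ON replicate 3; a term for the mitochondrial share also ended the call (adjusted p = 0.0819).

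**Figure D4:**
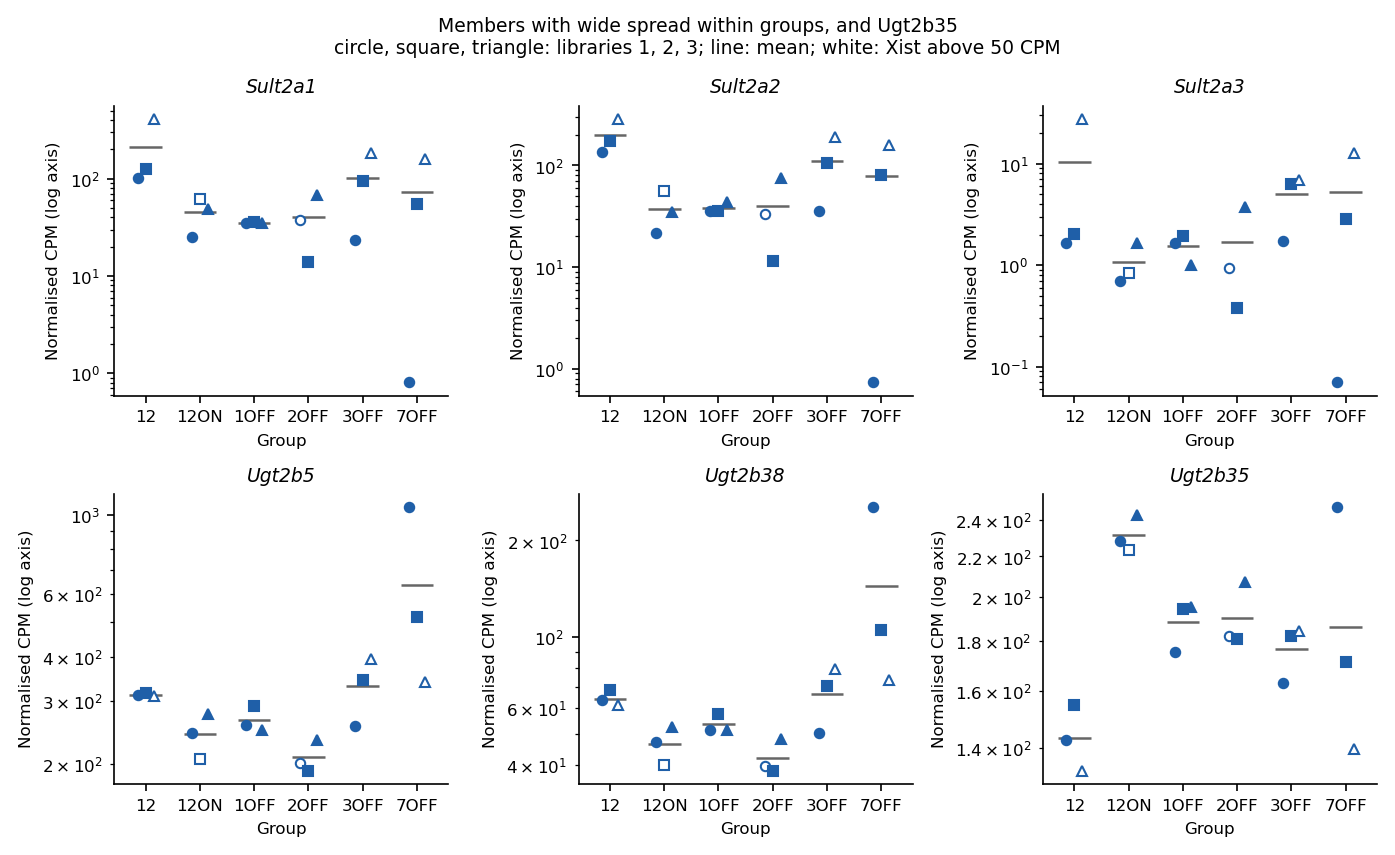
CPM on a log axis (y) of Sult2a1, Sult2a2, Sult2a3, Ugt2b5, Ugt2b38 and Ugt2b35 in the 18 libraries by group (x); circles, squares and triangles are replicates 1, 2 and 3, white symbols are high-Xist libraries and lines are group means. The circle of 7OFF is the lowest library for the 3 Sult2a genes (0.80 CPM in Sult2a1) and the highest for the 3 Ugt2b genes (1050 CPM in Ugt2b5).

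The SULT1 genes differed among themselves. Sult1b1, which sulfates thyroid hormones, read 37.9, 16.2 and 26.3 CPM in group 12 and 10, 6.33 and 8.22 in 12ON. Sult1b1 levels were 13.5, 10.2 and 20.4 at 1OFF, 14.4, 7.9 and 20.1 at 2OFF, 19.6, 24.4 and 20.2 at 3OFF and 18.5, 20.8 and 24.7 at 7OFF. It was 3.26-fold lower in 12ON (log2 fold change -1.70 ± 0.34, adjusted p = 0.000752) and higher than 12ON at 3OFF and 7OFF (1.39, adjusted p = 0.00564; 1.38, adjusted p = 0.0037). In the low-Xist libraries alone Sult1b1 lost both of these calls (1.27, adjusted p = 0.0978; 1.11, adjusted p = 0.0903). Sult1c2 moved the other way: it was 2.34-fold higher in 12ON (log2 fold change 1.22 ± 0.27, adjusted p = 0.0015), where it read 9.01, 8.66 and 13.8 CPM against 4.31, 3.37 and 5.69 in group 12. It was also higher than in group 12 at 1OFF, 2OFF and 3OFF (1.28, adjusted p = 0.00196; 1.48, adjusted p = 0.00067; 0.95, adjusted p = 0.0228), and lower at 7OFF than in 12ON (-0.90, adjusted p = 0.0111), a call that was lost without 7OFF replicate 1 (adjusted p = 0.053) or 12ON replicate 3 (adjusted p = 0.0646). Its call against group 12 at 3OFF was lost without 12 replicate 1, 12 replicate 2 or 3OFF replicate 1 (adjusted p = 0.0665, 0.0995 and 0.115). With a term for the mitochondrial share, Sult1c2 lost all of these calls (12ON against 12: 0.92, adjusted p = 0.0977).

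Sult1a1, the main phenol sulfotransferase, read 208, 157 and 164 CPM in group 12 and 246, 188 and 226 in 12ON. Sult1a1 levels were 248, 222 and 362 at 1OFF, 237, 231 and 346 at 2OFF, 264, 251 and 202 at 3OFF and 65.1, 128 and 184 at 7OFF. Groups 12 and 12ON overlapped (log2 fold change 0.32 ± 0.29, adjusted p = 0.383), and all 7OFF values lay below those of 12ON (-0.81, adjusted p = 0.0343); without 7OFF replicate 1, its lowest library, that difference was -0.50 (adjusted p = 0.122), and it also failed without 12ON replicate 1, 12ON replicate 3 or 7OFF replicate 2 (adjusted p from 0.07 to 0.0903) and with a term for the mitochondrial share (adjusted p = 0.0733). Sult1d1, which acts on amines such as dopamine, read 98.6, 56.4 and 85.9 CPM in group 12 and 112, 86.9 and 101 in 12ON (log2 fold change 0.32 ± 0.27, adjusted p = 0.36). Sult1d1 levels were 118, 117 and 133 at 1OFF, 202, 81.9 and 139.9 at 2OFF, 180.5, 145 and 166 at 3OFF and 107, 74.9 and 137 at 7OFF. It was not called against 12ON in any OFF group and was higher than in group 12 at 2OFF and 3OFF (0.81, adjusted p = 0.0318; 1.03, adjusted p = 0.0191). The call at 2OFF was lost without 12 replicate 2 or 3 or 2OFF replicate 1 or 3 (adjusted p from 0.0572 to 0.202), and that at 3OFF without 12 replicate 2 (adjusted p = 0.0844) or 3OFF replicate 1 (adjusted p = 0.0656). A term for the mitochondrial share ended both Sult1d1 calls (adjusted p = 0.431 and 0.239), and the low-Xist libraries alone that at 2OFF (adjusted p = 0.224). Sult1e1, the oestrogen sulfotransferase, ranged from 0.175 CPM (7OFF replicate 1) to 25.4 CPM (2OFF replicate 3) and was called in none of the 9 comparisons by edgeR; 1 of the 9 had an unadjusted p under 0.05 (2OFF against 12), and its difference in 12ON against 12 was log2 fold change 1.21 ± 1.04, adjusted p = 0.358.

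The other SULTs were low. Sult3a1, an amine sulfotransferase, read 1.45, 1.44 and 1.49 CPM in group 12 and 0.517, 0.11 and 0.132 in 12ON. Sult3a1 levels were 0.111, 0.194 and 0.56 at 1OFF, 0.915, 0.0252 and 0.724 at 2OFF, 2.37, 4.4 and 1.52 at 3OFF and 0.489, 17.1 and 12.1 at 7OFF. It missed the threshold in 12ON against 12 (log2 fold change -2.49 ± 1.05, adjusted p = 0.064) although the values did not overlap, and was higher at 3OFF (3.42, adjusted p = 0.0188) and 7OFF (5.25, adjusted p = 0.000942), where replicate 1 lay within the 12ON range. The call at 3OFF was lost without 12ON replicate 2 (adjusted p = 0.0802), 12ON replicate 3 (adjusted p = 0.0719) or 3OFF replicate 2 (adjusted p = 0.0665) and in the low-Xist libraries alone (adjusted p = 0.126). Without 12ON replicate 1 the differences at 3OFF and 7OFF were 4.46 and 6.31 (4.61 at 7OFF without 7OFF replicate 2). Its neighbour Sult3a2 was at most 0.82 CPM (35 counts) and was likewise called at 3OFF and 7OFF (2.85, adjusted p = 0.0316; 3.34, adjusted p = 0.00907), but at 3OFF it kept the call only when 3OFF replicate 3 was the library left out (adjusted p from 0.0511 to 0.135 without one of the other 5; log2 2.25 without 3OFF replicate 2), and in the low-Xist libraries alone it lost both calls (adjusted p = 0.125 and 0.116). Sult2b1, which sulfates cholesterol and pregnenolone and is known mainly from skin, had at most 20 counts in a library: it read 0, 0.0642 and 0.0862 CPM in group 12 and 0.369, 0.308 and 0.264 in 12ON (log2 fold change 2.33 ± 0.62, adjusted p = 0.00584) and was lower than 12ON again at 3OFF and 7OFF (-2.40, adjusted p = 0.00535; -2.15, adjusted p = 0.00713). Its log2 fold changes were 2.93 without 12 replicate 3, -3.06 without 3OFF replicate 2 and -3.38 without 7OFF replicate 3, in the same order of comparisons. Its call in 12ON was lost with a term for the mitochondrial share (2.66, adjusted p = 0.0663).

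Levels between genes were compared per kb of exon, as mean CPM per kb. Levels of the Ugt1a genes are raised, since reads of the common exons count for all 9 of them. In group 12, 7 Ugt1a genes came first (Ugt1a1 409 CPM per kb, the lowest of the 7 Ugt1a6b at 312), followed by Sult2a2 (269), Sult2a1 (210), Ugt2b36 (195), Ugt1a7c (176), Ugt1a6a (173), Ugt2b5 (169), Ugt3a2 (142) and Sult1a1 (117). In 12ON, Sult1a1 (146) was the highest outside the Ugt1a locus, followed by Ugt2b5 (130) and Ugt2b36 (114). For Ugt2b5, Sult2a1 and Sult2a2 these levels are too low by the reads that match more than 1 gene. The order of Sult1a1 and Ugt2b5 in 12ON is therefore not fixed, with 7.4% and 41.7% of their 50-base windows shared. The spread between mice was wider than the gap between Sult2a2 and Sult2a1 in group 12, so the order of that pair is not fixed either.

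Some genes that supply and clear the conjugates were higher and others lower in 12ON, beside 46.6% of all genes called. Of 7 genes listed for the glucuronidation cofactor, 3 rose and 2 fell in 12ON against 12 (median log2 0.23, against -0.005 for all genes). The list also holds Ugt8a, which encodes a ceramide galactosyltransferase and does not supply the cofactor. Ugt8a was 1 of the 3 that rose (log2 fold change 3.14, means of 0.138 CPM in group 12 and 1.15 in 12ON). Ugdh, which makes UDP-glucuronate, rose from 81.3, 65.7 and 85.7 CPM to 310.5, 299 and 323 (log2 fold change 2.00 ± 0.24, adjusted p = 1.33e-05), with no overlap. Slc35b1, a gene of the nucleotide sugar transporter family, fell (-1.20, adjusted p = 0.00343). It read 50.75, 117 and 42.6 CPM in group 12 and 28.9, 29.7 and 33.2 in 12ON, so the size of its fall rests partly on 12 replicate 2. Whether Slc35b1 supplies the cofactor was not tested. Of 7 tested sulfation cofactor genes, 1 rose and 3 fell (median -0.26): Papss2, which makes PAPS, read 366, 149 and 344 CPM in group 12 and 119.5, 111 and 119 in 12ON (log2 fold change -1.30 ± 0.37, adjusted p = 0.00943), and Slc35b2, a PAPS transporter gene, rose (0.62, adjusted p = 9.9e-05). At 7OFF against 12ON, 2 genes of the glucuronidation list were higher and 3, Ugt8a among them, lower, and 1 sulfation gene was higher and 1 lower.

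Of 10 tested genes for conjugate hydrolysis and transport, 2 rose and 3 fell in 12ON (median -0.09), a share near that of all genes. Gusb, the lysosomal glucuronidase, read 48.3, 38.4 and 53 CPM in group 12 and 132, 129 and 121 in 12ON (log2 fold change 1.45 ± 0.13, adjusted p = 8.62e-07), and the exporter gene Abcc4 rose too (1.47, adjusted p = 0.00211). Slco1a1, a hepatocyte uptake transporter for organic anions, read 585, 456 and 333 CPM in group 12 and 20.2, 3.67 and 13.3 in 12ON (log2 fold change -5.21 ± 0.79, adjusted p = 8.48e-05), and Slco2b1 and Slco1b2 fell (-1.64, adjusted p = 2.26e-05; -1.30, adjusted p = 0.000267). Of 16 transcription regulators known for these families, 10 fell and 2 rose (median -0.66), among them Hnf4a (-0.78, adjusted p = 0.000179), Ppara (-1.24, adjusted p = 0.000592) and Esr1 (-1.91, adjusted p = 0.000276) lower and Nfe2l2 (1.09, adjusted p = 0.000158) and Nr1i2 (0.46, adjusted p = 0.0372), the xenobiotic receptor PXR, higher. At 7OFF against 12ON, 9 regulators were higher and 1 lower. Beside these, 5 of 6 hepatocyte markers fell and 1 rose in 12ON, all 5 pericentral markers fell, 4 of 5 periportal markers fell and 1 rose, and all 6 cholangiocyte markers rose. Of the other cell types, all 4 sinusoidal endothelial markers (median log2 -0.98) and 3 of 4 Kupffer cell markers (median -1.41) fell, 1 of 2 lymphocyte markers fell, 2 of 4 stellate cell markers and both tested enterocyte markers rose, and 0 of 3 neutrophil markers passed in edgeR's test (0 at an unadjusted p under 0.05). Their part in the members' differences was not tested.

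**Figure D5:**
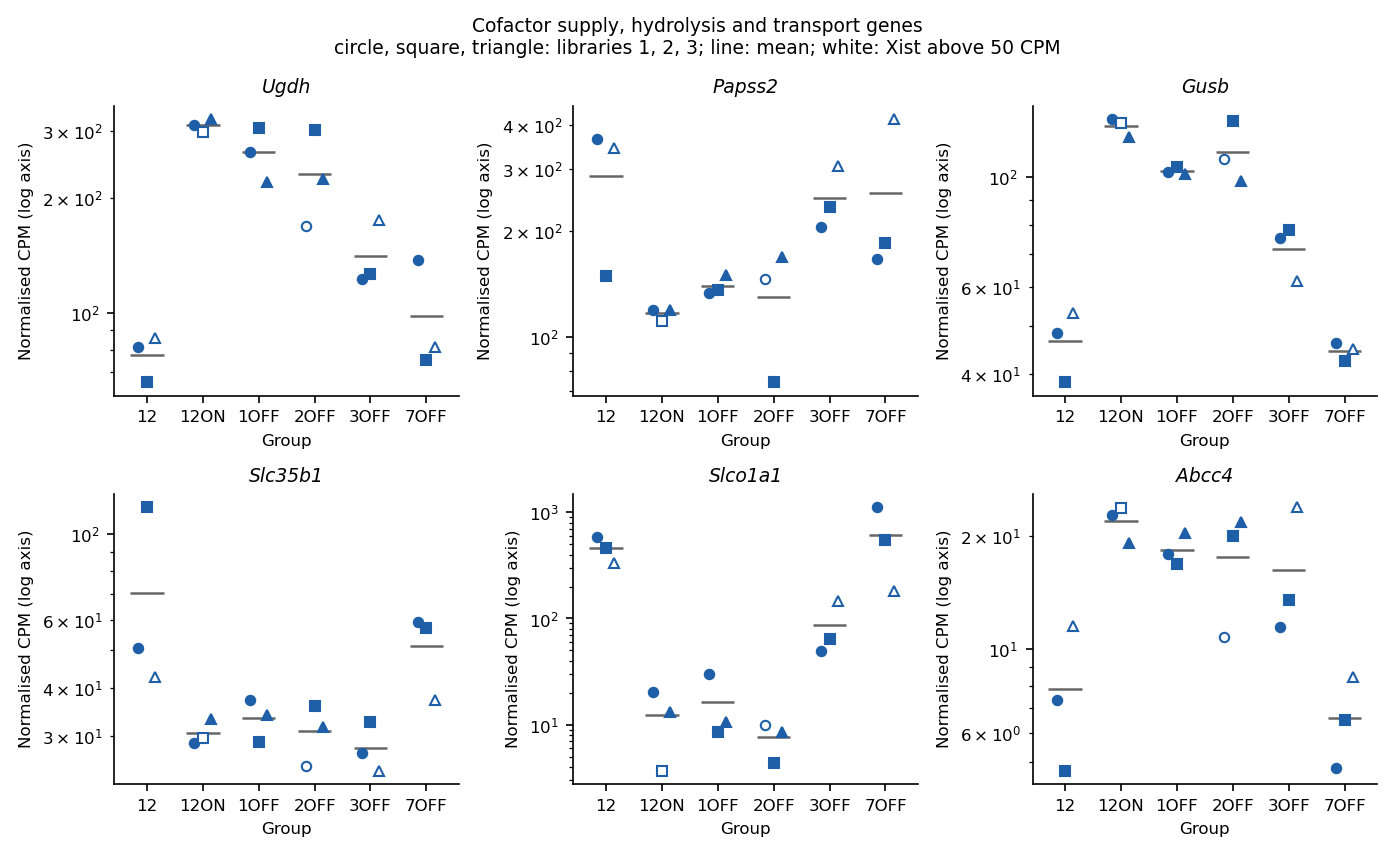
CPM on a log axis (y) of Ugdh, Papss2, Gusb, Slc35b1, Slco1a1 and Abcc4 in the 18 libraries by group (x); symbols mark replicates as above, white symbols are high-Xist libraries and lines are group means. Ugdh, Gusb and Abcc4 lie higher in 12ON than in group 12 (Ugdh 299 to 323 against 65.7 to 85.7 CPM), and Papss2, Slc35b1 and Slco1a1 lie lower.

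Promoter windows of 300 bases (250 before to 50 after the RefSeq start) were found for 36 members, 39 windows in all. The 6-base core of HNF1 sites, written GTTAAT and searched on both strands (HNF1 is a liver transcription factor), occurred in 13 of 39 windows (33.3%) and in 7.1% of all 32851 windows in the table. The windows with it were those of Ugt1a1, Ugt1a6a, Ugt1a9, Ugt1a10, Ugt2a3, Ugt3a1, Sult1a1, Sult1d1, Sult2a3, Sult2a4, Sult2a5, Sult2a6 and Sult3a2, which include genes that fell in 12ON and genes that did not pass. These windows are not independent, since the Sult2a genes are close copies and the windows of Ugt1a9 and Ugt1a10 share a run of 32 bases. Ugt2a3 has 2 such matches, shown in capitals in the 100 bases before its start (chr5:87337196-87337295, minus strand, 5′ to 3′).
Ugt2a3: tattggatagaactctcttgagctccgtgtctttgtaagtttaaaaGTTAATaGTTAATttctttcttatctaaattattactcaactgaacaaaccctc
The letters of the E-box CACGTG, which Myc proteins can bind, were in 0 of 39 member windows and in 7.15% of all windows. The dioxin-response core GCGTG was in 6 of 39 (15.4%) against 32.4% of all windows, the antioxidant-response core TGACNNNGC in 0 against 12.4%, and the full palindromic HNF1 site and the DR1 nuclear receptor repeat in 0 against 0.01% and 0.04%. A match here is a match of letters and is not a measured site. The base composition of the windows, on which the number of matches also depends, was not compared.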

How the data were processed

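Polyadenylated RNA of 18 livers was sequenced, and 1 table of gene counts was deposited per liver. Per the file headers, the authors counted reads with featureCounts 1.5.0-p1 over exons of Ensembl 82, without strand, with a minimum overlap of 10 bases, each read counted for every gene it overlapped and multi-mapped reads left out. Trim Galore, TopHat2 and mm10 are named, per the submitters' processing notes, without versions. Reads that match several copies of a gene are therefore missing, and reads in shared exons are counted more than once.

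Symbols were matched for 34599 of 34937 gene IDs. Counts were fitted in 1 model of all 18 libraries with edgeR 4.0.16 (R 4.3.3; quasi-likelihood F test, two-sided): TMM scaling, filterByExpr with a minimum count of 10, 17789 genes tested, 12 residual degrees of freedom, Benjamini-Hochberg adjustment over all genes, called at an adjusted p under 0.05. SE is the log2 fold change divided by the square root of F. CPM are computed here from the deposited counts. DESeq2 1.42.0 was an alternative; others changed the scaling, the filter, the libraries fitted, a replicate block, and terms for high Xist (above 50 CPM) and mitochondrial share. On simulated counts for 12ON against 12, 59% of 100 genes with a log2 change of 1 and 79% of 100 with a change of 2 were recovered, and 6.8% of calls were false. Only these genes differed between groups in the simulation, while 46.6% of all genes were called in the data. Its rates therefore need not hold for the real comparison.

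Members and gene lists were chosen with earlier results of these data known. Members called in 12ON against 12 or 7OFF against 12ON with a mean of at least 20 CPM are given by library, with up to 6 others of highest mean in their family; of the 9 Ugt1a genes, whose counts are nearly equal, only some are. Of each pathway list, at most 4 genes per direction with the smallest p are named. The labels do not say that the mice of a group came from separate litters or cages, so p-values measure the spread between these 18 samples. No pair of libraries in a group agreed within counting noise (chi-square per gene 33.9 or more). Promoter windows and names come from RefSeq (GRCm38.p6). Coding sequences and the transcripts searched for shared windows come from a different annotation than the Ensembl 82 exons used for counting. For Sult2a7, for example, the coding sequence has 942 bases and the counted exons 897. The shares of windows that occur in another gene therefore need not hold exactly for the counted exons.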

Additional observations from a re-analysis of the deposited data

How the results depend on the processing

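For single members, 2116 of the values recomputed under the alternatives kept their direction and side of the threshold, 279 lost their call, 13 gained one and 5 changed sign. Members called in 12ON against 12 numbered 26, 22 to 25 when 1 library was left out, 20 in the low-Xist libraries alone and 16 once the mitochondrial share was fitted as a covariate; that share differs between the groups, so the covariate takes up part of their contrast. Leaving out 1 library gave 26 to 29 members for 7OFF against 12ON, 16 to 21 for 3OFF against 12ON, 0 to 3 for 2OFF against 12ON, 0 to 0 for 1OFF against 12ON, 13 to 18 for 1OFF against 12, 18 to 23 for 2OFF against 12, 1 to 5 for 3OFF against 12 and 0 to 5 for 7OFF against 12. The counts of 1 for 3OFF against 12 (5 in all libraries) came without 3OFF replicate 1, and 3 without 12 replicate 2. DESeq2 called 1 member for 1OFF against 12ON where edgeR called 0. Scaling by total counts gave 12 for 3OFF against 12ON (21 with TMM), 9 for 1OFF against 12 (16) and 14 for 2OFF against 12 (24). With total counts the median log2 fold change of all genes was 0.486 in 12ON against 12. That median was 0.336 and 0.367 in 1OFF and 2OFF against 12, and -0.309 and -0.412 in 3OFF and 7OFF against 12ON. The low-Xist libraries alone gave 4 for 3OFF against 12ON, 10 for 1OFF against 12 and 11 for 2OFF against 12. The mitochondrial term gave 5 for 1OFF against 12, 5 for 2OFF against 12, 0 for 3OFF against 12 and 0 for 7OFF against 12. Fitting only the groups compared gave 27 for 1OFF against 12 and 0 for 7OFF against 12. The causes of these shifts were not tested.

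In 12ON against 12, total-count scaling turned the uncalled values of Ugt2b5, Ugt2b37 and Ugt2b38 to 0.12, 0.0018 and 0.028, and leaving out 1 library moved the uncalled value of Sult2a7 (0.11) from -1.47 (without 12ON replicate 3) and -0.44 (without 12 replicate 2) to 1.55 (without 12 replicate 3).

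The labels number the mice of every group 1 to 3. Deviations of same-numbered libraries from different groups correlated between -0.18 and 0.334 over 45 pairs of libraries, only 12 of them above 0.1. The numbers were therefore not taken to pair the samples. Of 18 libraries, 12 correlated best with one of their own number, a hint of shared numbers that comes from the data and not from the design. With the replicate block, 27 members were called in 12ON against 12, 28 in 7OFF against 12ON and 0 in 7OFF against 12 (3 without it). Members with few counts (Sult2a7, Sult3a2, Sult2b1) are limited by depth.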
